A study of Sus scrofa with 7 samples.

Results

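The pig gene tables hold 225 rows whose symbol is ZNF followed by a number, under 222 different symbols, among 29510 genes in all. These are zinc finger genes named by number, and the rule that takes them uses the symbol alone and no measured value. Of the 225 genes, 83 are listed with a KRAB box and 11 with a SCAN domain, and 206 had enough counts to be tested. The genes were compared between 3 porcine cell types: 3 extra-embryonic endoderm lines (pXEN cells), 2 naive-like embryonic stem cell lines (nESCs) and 2 primed embryonic stem cell lines (pESCs), with 1 RNA-seq library per line.

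The pXEN lines came from inner cell masses of parthenogenetic blastocysts and were grown on mitomycin-inactivated mouse embryonic fibroblasts in LCDM medium, which holds LIF, CHIR99021, dimethindene maleate, minocycline and Y27632, and they were taken at passages 26, 26 and 23. The nESC lines were grown on mouse embryonic fibroblasts in LBX medium, with FGF, LIF, PD0325901, CHIR99021, SB431542 and doxycycline, to passages 21 and 22. The pESC lines, which the labels give as converted from naive-like cells, were grown on STO feeder cells with activin A, bFGF, EGF and LIF to passage 20. Culture medium and derivation therefore differ together with the cell type, as do the feeder cells of pESCs, and cannot be told apart from it. The labels do not say that the lines of a type come from separate embryos, so each p-value measures only the spread between these libraries.

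Zinc finger proteins of this kind bind DNA, and some bind RNA or other proteins, through repeated C2H2 fingers. The largest subgroup carries a KRAB box, which recruits the corepressor TRIM28 (KAP1) and, through it, the histone methyltransferase SETDB1 and heterochromatin protein 1. Many KRAB zinc finger proteins silence retroelements in early embryonic cells, and their genes arose by tandem duplication and lie in clusters. ZNF-named genes without a KRAB box include developmental regulators, chromatin proteins and proteins that act on RNA and ribosomes.

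The libraries held 10408164 to 12995720 counts each. ZNF-named genes took 0.491% to 0.550% of them in pXEN cells and 0.560% to 0.606% in nESCs and pESCs. All 10 extra-embryonic endoderm markers examined, such as GATA4, SOX17 and HNF4A, were higher in pXEN cells than in either stem cell type, and their summed level was 2129 to 2430 FPKM in pXEN cells against 27.2 to 203.5 elsewhere. FPKM, fragments scaled by gene length and library total, is a level corrected for length and depth. Among 8 pluripotency markers the nESCs had SOX2 and GBX2, but NANOG, UTF1 and PRDM14 were at or near 0 in both nESC lines and TFAP2C did not exceed 0.505 FPKM. The library of pXEN line 2 stood apart. Its summed level of fibroblast markers was 247 FPKM against 17.9 and 20.8 in lines 1 and 3, with COL1A1 at 144 FPKM. The same sum was 42.6 and 71.9 FPKM in pESCs and 7.83 and 9.63 in nESCs, and DCN was at 18.3 and 38.8 FPKM in pESCs against 1.40 in pXEN line 2. Genes on chromosome Y had 38 counts in it against 0 to 11 in the other libraries, while cells of parthenogenetic embryos carry no Y chromosome. The part of the fibroblast marker and chromosome Y values in the results was not tested. Counts over members and lists are also given without this library, where 30.2% of all genes tested were higher and 29.8% lower in pXEN cells than in nESCs and 26.5% and 28.9% than in pESCs.

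Most ZNF-named genes were detected in every cell type. At a limit of 1 FPKM in every library of a type, 179 of the 225 genes (79.6%) were detected in pXEN cells, 180 (80.0%) in nESCs and 184 (81.8%) in pESCs. The same limit was met by 46.3%, 46.1% and 48.6% of all 25322 annotated genes. These include small RNA genes and genes without a symbol, so the sets compared are not alike. In all 3 types 169 members were detected (75.1%, against 40.2% of annotated genes), and in none 31. The median level of a member was 5.71 to 6.22 FPKM in the pXEN libraries and 5.60 to 5.70 in the others. Every pXEN library was thus above the others in this median, and below them in its share of counts. In bulk libraries such as these, fewer cells that express a gene and less RNA of it per cell cannot be told apart. Because detection depends on depth, 3 counts correspond to 0.111 to 0.152 FPKM for a transcript of 2000 bases, and 8 members did not exceed 3 counts in any library. Few members were on 1 side of this limit in every library of a type and on the other side in all other libraries. ZNF337 and ZNF782 reached 1 FPKM in every pXEN library and in no other, ZNF488 and ZNF536 did so in nESCs, and ZNF365 in pESCs. ZNF70 and ZNF311 were under 1 FPKM in pXEN cells alone, and ZNF174, ZNF274, ZNF606 and ZNF671 in nESCs alone. Crossing the limit is not a test. ZNF782, ZNF488, ZNF365 and ZNF274 did not pass the test given below against both other types. The share of all genes with these patterns was not counted.

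The highest levels among members belonged to ZNF207, which binds the spindle checkpoint protein BUB3. ZNF207 was at 139, 158 and 148 FPKM in pXEN lines 1 to 3, 142 and 137 in nESCs, and 141 and 143 in pESCs. The ranges overlap, and no comparison passed the test (log2 fold change 0.08 ± 0.10 (SE), adjusted p = 0.492, pXEN cells against nESCs). An unnamed gene listed on the same strand overlaps it. ZNF146, a protein made of zinc fingers with no other domain, came next and differed. Its level was 89.7, 91.8 and 86.5 FPKM in pXEN cells, 57.5 and 59.1 in nESCs, and 58.3 and 60.8 in pESCs. All pXEN libraries were above all others, by 0.61 ± 0.10 (log2, SE; adjusted p = 0.00100) against nESCs and 0.59 ± 0.10 (adjusted p = 0.00143) against pESCs. Here and below, log2 fold changes and adjusted p-values come from edgeR's quasi-likelihood test on counts over all 17447 genes tested, with Benjamini-Hochberg adjustment, and a gene is called at an adjusted p under 0.05.

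As a class, ZNF-named genes were called in both directions in similar numbers, and their changes were smaller than those of all genes tested. Against nESCs, 47 members were higher in pXEN cells and 47 lower (22.8% each of the 206 tested), where 28.3% of all genes tested were higher and 26.2% lower. Against pESCs, 37 were higher in pXEN cells and 47 lower (18.0% and 22.8%, beside 23.9% and 24.4% of all genes). Between the stem cell types, 23 members were higher in pESCs and 17 lower (11.2% and 8.25%, beside 19.0% and 13.3%). In each comparison and direction the share of members called was below that of all genes, although with another scaling, given below, it was not for lower calls in pXEN cells. The median log2 fold change of members, relative to the median of all genes tested, was −0.12 for pXEN cells against nESCs, −0.09 against pESCs and 0.00 for pESCs against nESCs. The median size of the change was 0.56, 0.50 and 0.35, against 0.81, 0.67 and 0.55 over all genes. A fold change over 2 in either direction, called or not, was measured in 22.8%, 18.9% and 14.6% of members and in 43.2%, 37.7% and 32.0% of all genes. The 3 comparisons share libraries, and 82 of 206 members were called in none of them, whereas 68.6% of all genes were called in at least 1.

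**Figure D1:**
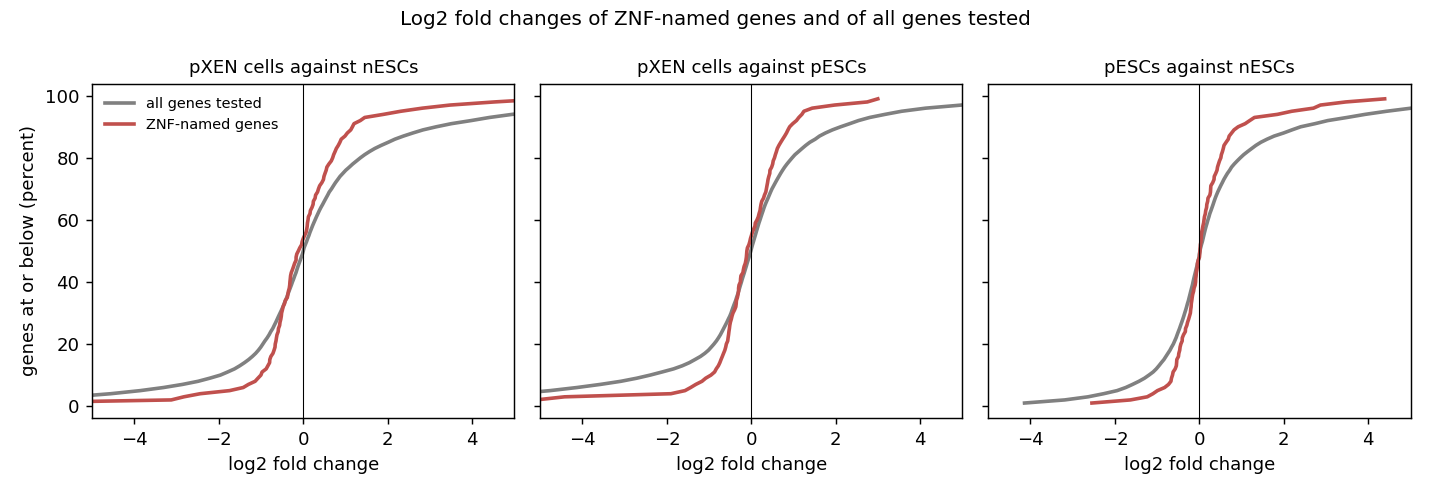
Cumulative distribution of log2 fold changes (x axis) as the percent of genes at or below each value (y axis), from the first to the 99th percentile, for the 206 ZNF-named genes tested (red) and all 17447 genes tested (grey) in the 3 comparisons. The red curves are steeper around 0 than the grey ones and cross 50% close to 0, with medians of −0.12, −0.11 and 0.01.

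The split between higher and lower calls depended on the scaling of the libraries. With upper-quartile scaling in place of TMM (trimmed mean of M values), 37 members were higher and 69 lower in pXEN cells against nESCs, 30 and 57 against pESCs, and 21 and 25 in pESCs against nESCs. The share of members called lower in pXEN cells was then 33.5% beside 32.2% of all genes against nESCs, and 27.7% beside 27.6% against pESCs. The share called higher was 18.0% beside 24.9%, and 14.6% beside 21.6%. For pESCs against nESCs the shares were 10.2% higher and 12.1% lower, beside 17.5% and 16.5%. This scaling placed the median of all genes tested at −0.16, −0.09 and −0.06, and the medians of members relative to it were −0.12, −0.10 and −0.01. Without pXEN line 2 the calls were 53 higher and 55 lower against nESCs, and 45 and 56 against pESCs. The 23 and 17 of pESCs against nESCs then became 38 and 29, while 24.4% and 19.4% of all genes were called.

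Members with and without a KRAB box were called in both directions. Of 75 tested members with a KRAB box, 17 were higher and 15 lower in pXEN cells than in nESCs (22.7% and 20.0%, beside 28.3% and 26.2% of all genes), and 13 and 13 against pESCs (17.3% each, beside 23.9% and 24.4%). The 131 members without one gave 30 and 32 against nESCs (22.9% and 24.4%), and 24 and 34 against pESCs (18.3% and 26.0%). Among 49 tested genes listed with a KRAB box under other names, 16 were higher in pXEN cells and 4 lower than in nESCs (32.7% and 8.16%), and 15 and 6 against pESCs. Without pXEN line 2 the counts against nESCs were 17 and 17 with a KRAB box, 36 and 38 without one, and 16 and 4 under other names. Against pESCs they were then 16 and 16, 29 and 40, and 14 and 7. The difference between these groups was not tested. Of the other families named as zinc finger genes, 30 ZBTB genes tested had 6 higher and 3 lower, 12 ZFP genes 1 and 4, and 10 ZSCAN genes 3 and 1 in pXEN cells against nESCs.

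Of the machinery that KRAB proteins use, 18 of 21 listed symbols were matched and tested. TRIM28 itself was not matched, nor were HDAC1 and TASOR, so the counts do not cover it. The list also holds chromatin factors such as DNMT1 and UHRF1. Of the 18, 1 was higher and 8 lower in pXEN cells than in nESCs (5.56% and 44.4%, beside 28.3% and 26.2% of all genes). Against pESCs 3 were higher and 6 lower (16.7% and 33.3%, beside 23.9% and 24.4%), and in pESCs against nESCs 3 and 5 (16.7% and 27.8%, beside 19.0% and 13.3%). These counts were 3 and 11, 3 and 6, and 5 and 7 without pXEN line 2. SETDB1, the methyltransferase, was at 11.3, 8.88 and 12 FPKM in pXEN cells, 19.8 and 20.0 in nESCs, and 12.1 and 11.2 in pESCs, lower in pXEN cells than in nESCs by 0.90 ± 0.13 (log2, SE; adjusted p = 0.000773). MORC2, which acts with the silencing complex HUSH, was also lower in every pXEN line than in the nESCs, at 10.8, 12.8 and 11.7 FPKM in pXEN cells, 22.3 and 24.1 in nESCs, and 11.8 and 11.2 in pESCs (adjusted p = 0.000214 for pXEN cells against nESCs). The 1 higher gene was MORC3, at 21.6, 16.7 and 24.1 FPKM in pXEN cells against 7.16 and 7.82 in nESCs (log2 fold change 1.47 ± 0.17, adjusted p = 0.000233). MORC3 lies on chromosome 13, where 41.0% of all genes tested were higher in pXEN cells than in nESCs.

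The genes are unevenly spread over the genome. Chromosome 6 holds 66 of the 225 members (29.3%) and 7.67% of annotated genes, followed by chromosome 3 with 20 members, chromosome 14 with 19 and chromosome 2 with 18. Counting 3 or more members with starts no more than 500 kb apart as a cluster, 18 clusters held 96 members. On chromosome 6, 17 of 60 tested members were higher in pXEN cells than in nESCs and 10 lower, while 30.3% of all 1533 genes tested there were higher and 25.2% lower. Of 88 tested members in clusters, 23 were higher and 15 lower against nESCs, and of the 118 others 24 and 32, where 28.3% and 26.2% of all genes were called. The counts without pXEN line 2 were 17 and 11 on chromosome 6, 26 and 16 in clusters, and 27 and 39 outside them. Leaving out the 1 cluster described next, 15 clustered members were higher and 14 lower.

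**Figure D2:**
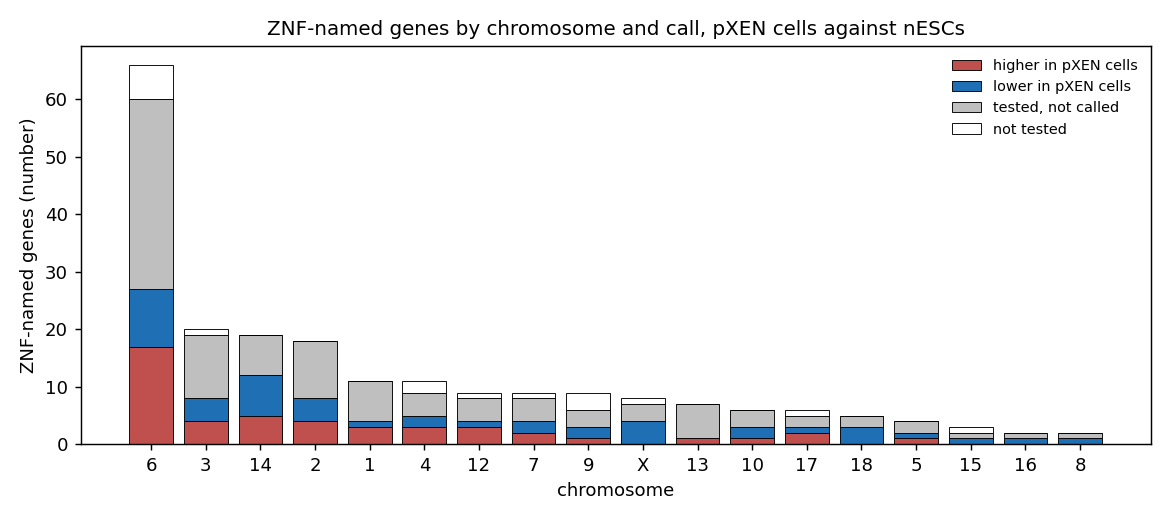
Number of ZNF-named genes (y axis) on each chromosome (x axis), split by their call in pXEN cells against nESCs; members on unplaced scaffolds are not drawn. Chromosome 6 carries 66 genes, of which 17 were called higher and 10 called lower, and the next chromosome carries 20.

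The cluster in question runs from ZNF134 to ZNF132, at chr6:56718236-57741493 of the pig assembly Sscrofa10.2, and 8 of its 10 members are listed with a KRAB box. Genes of such clusters resemble each other in sequence, and how reads shared between copies were counted is not given in the sources used here, so values of single members carry that uncertainty. Of its 9 tested members, 8 were higher in pXEN cells than in nESCs (beside 28.3% of all genes), 7 were higher than in pESCs (beside 23.9%), and 4 were higher in pESCs than in nESCs (beside 19.0%). Only ZNF584 was lower in pXEN cells than in nESCs. In 6 of the 9, nESCs were lowest, pESCs between and pXEN cells highest with no overlap between the types, an order found in 23 members in all and in 12% of all genes tested. The median log2 fold change of the 9 was 2.88 against nESCs, the largest of the 18 clusters, and 1.23 against pESCs, where the cluster of ZNF337, described below, had 1.27.

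ZNF134 (chr6:56718236-56719477, plus strand) led the cluster. It was at 32.3, 28.1 and 30.1 FPKM in pXEN cells, 0 and 0.207 in nESCs, and 0.765 and 3.76 in pESCs. The nESCs had 3 counts in all, and the ratio of pXEN cells to nESCs was 297 with a 95% counting interval of 101 to 1442, which covers counting error only. Against pESCs the log2 fold change was 3.73 ± 0.57 (adjusted p = 0.00112). The types did not overlap.

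ZNF606 (chr6:57292699-57314691, minus strand), a KRAB gene, was at 15.7, 15.9 and 16.9 FPKM in pXEN cells, 0.855 and 0 in nESCs, and 2.91 and 3.91 in pESCs. It was higher in pXEN cells than in nESCs by 5.21 ± 0.76 (log2, SE; adjusted p = 0.000694) and than in pESCs by 2.25 ± 0.60 (adjusted p = 0.0151). The nESC lines were unlike each other here, with 39 counts in line 1 and 0 in line 2. ZNF671 (chr6:57102604-57106521, plus strand) was at 6.83, 8.23 and 8.83 FPKM in pXEN cells, 0.103 and 0.533 in nESCs, and 3.90 and 3.56 in pESCs. Its log2 fold change was 4.63 ± 0.52 against nESCs (adjusted p = 0.000174) and 1.10 ± 0.39 against pESCs (adjusted p = 0.0466). The calls against pESCs were lost for ZNF606 without pESC line 1 or 2 (adjusted p 0.121 and 0.0839) and for ZNF671 without either pESC line or pXEN line 1 or 3 (adjusted p 0.0691 to 0.212). The former call was also lost with DESeq2 (adjusted p = 0.205) and with limma on log2(FPKM + 0.1) (adjusted p = 0.0642), and the latter with upper-quartile scaling (adjusted p = 0.0623) and with the same limma setting (adjusted p = 0.103).

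ZNF749 (chr6:57065541-57081048, minus strand) was at 9.76, 9.24 and 11.5 FPKM in pXEN cells, 1.63 and 1.73 in nESCs, and 5.38 and 5.75 in pESCs, a log2 fold change of 2.59 ± 0.19 against nESCs (adjusted p = 1.76e-05). Its protein match in the gene description is ZNF211, so the symbol is uncertain. ZNF274 (chr6:57502682-57527735, minus strand), which brings SETDB1 to the ends of other zinc finger genes, was at 5.03, 2.83 and 4.80 FPKM in pXEN cells, 0.0778 and 0.646 in nESCs, and 1.38 and 1.36 in pESCs. It was higher in pXEN cells than in nESCs by 3.53 ± 0.68 (adjusted p = 0.00302), and the difference from pESCs did not pass the test (1.62 ± 0.58, adjusted p = 0.0502, 0.0179 with DESeq2 and 0.0103 to 0.0165 without pXEN line 2 or either nESC line).

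The remaining members of the cluster differed by less. ZNF418 was at 15.1 to 18.2 FPKM in pXEN cells, 9.07 to 9.91 in nESCs and 6.55 to 7.36 in pESCs, and ZNF329 at 8.66 to 9.74, 3.92 to 4.29 and 5.37 to 6.72. ZNF132 was low, at 0.807, 0.288 and 0.904 FPKM in pXEN cells and no more than 0.158 elsewhere, and its call against nESCs was lost with DESeq2, upper-quartile scaling and no count filter (adjusted p 0.0557 to 0.0828), and without either nESC line (adjusted p 0.242 and 0.150). Its call against pESCs was lost with DESeq2, no count filter or only the 2 groups fitted (adjusted p 0.0580 to 0.0771), and without either nESC line or pESC line 2 (adjusted p 0.0812 to 0.244). The call of ZNF329 against pESCs was lost with DESeq2, upper-quartile scaling, no count filter or only the 2 groups fitted (adjusted p 0.0541 to 0.0698), and without any 1 library other than pXEN line 2 (adjusted p 0.0526 to 0.256). ZNF584 went the other way, at 7.01, 7.72 and 7.78 FPKM in pXEN cells, 11.4 and 12.5 in nESCs, and 6.39 and 8.91 in pESCs (−0.68 ± 0.21 against nESCs, adjusted p = 0.0268). ZNF16 had 0 to 4 counts per library and was not tested. Leaving out 1 library at a time kept 7 or 8 members higher against nESCs, whereas the 7 calls against pESCs fell to 4 without pXEN line 1, pXEN line 3 or pESC line 1 and to 3 without pESC line 2. The call of ZNF584 was lost without any of pXEN lines 1 and 3 and nESC lines 1 and 2 (adjusted p 0.0567 to 0.129).

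Many other genes of the same interval were called in the same direction. Among 20 tested genes there that are not ZNF-named, 15 were higher in pXEN cells than in nESCs and 2 lower, beside 28.3% and 26.2% of all genes. Some of the 20 are unannotated transcripts that overlap each other in position, so they are not all separate. The unnamed KRAB gene ENSSSCG00000003986 was at 12.3, 10.7 and 11.6 FPKM in pXEN cells, listed at 0 in both nESC lines, and at 1.10 and 2.42 in pESCs. The unnamed KRAB gene ENSSSCG00000021888 was at 6.65, 4.18 and 6.65 FPKM in pXEN cells, 0.226 and 0.156 in nESCs, and 0.579 and 0.678 in pESCs. Genes of other kinds rose as well. ZSCAN4 was at 3.40, 2.39 and 3.73 FPKM in pXEN cells against 0.667 and 0.508 in nESCs, and A1BG, which encodes a plasma glycoprotein, at 116, 95.4 and 105 FPKM against 0.215 and 0.223.

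**Figure D3:**
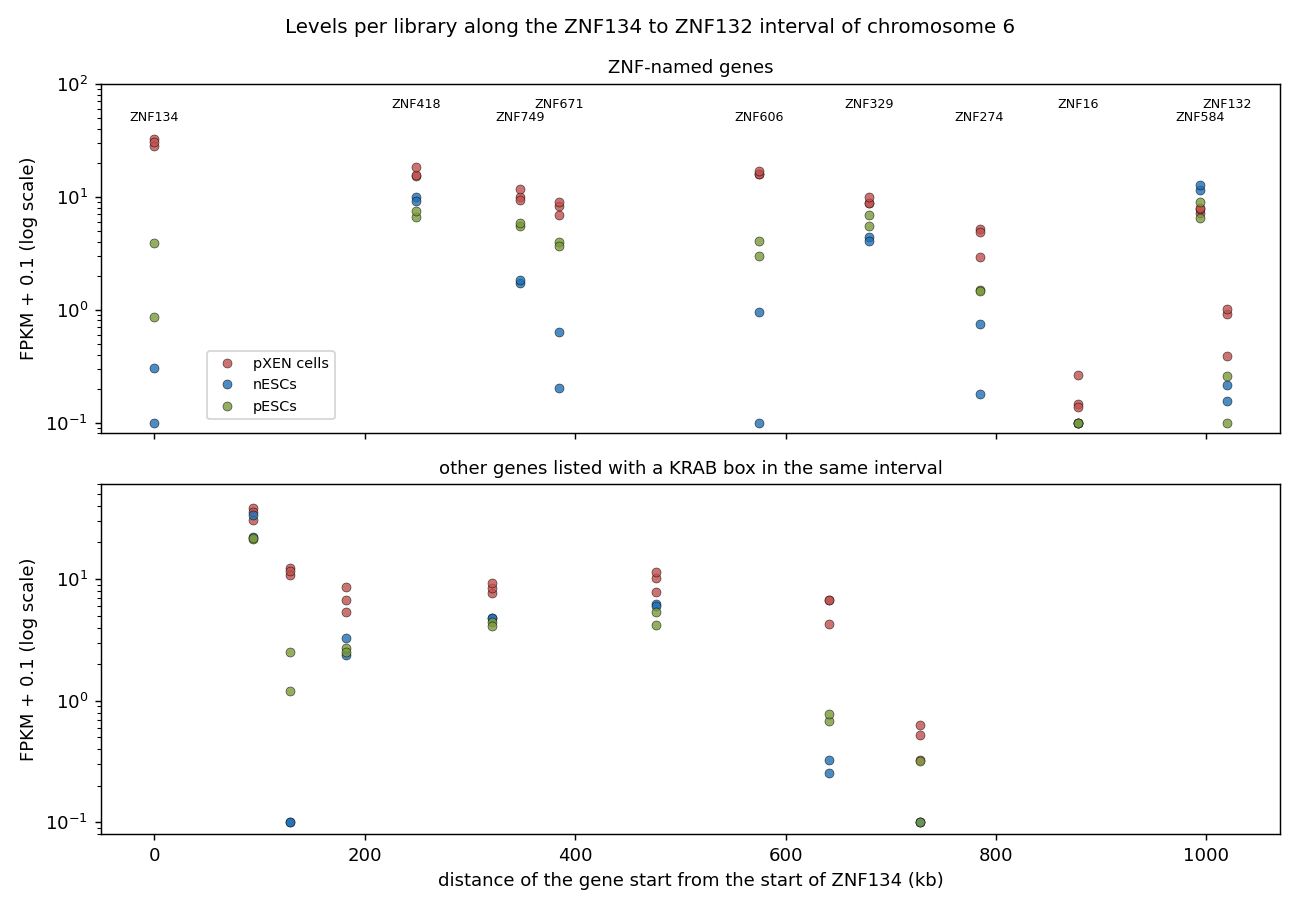
Level in each library, as FPKM + 0.1 on a log scale (y axis), against the distance of each gene's start from that of ZNF134 in kb (x axis), for the 10 ZNF-named genes (top) and 7 other tested genes listed with a KRAB box (bottom) of the chromosome 6 interval. The pXEN points (red) lie above the nESC points (blue) at 8 of the 9 tested ZNF-named genes, and pESC points (green) lie between them at 6.

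The other large clusters had smaller medians. The cluster of 16 members from ZNF146 at chr6:41000464-42096625 had 3 tested members higher and 2 lower of 15 in pXEN cells against nESCs, with a median log2 fold change of −0.03, beside 28.3% and 26.2% of all genes called. Within it, ZNF790 was at 13.1, 11.3 and 12.6 FPKM in pXEN cells against 5.37 and 5.64 in nESCs (1.16 ± 0.13, adjusted p = 0.000182), although its description matches ZNF568. ZNF529 was lower, at 3.71, 2.34 and 4.61 FPKM in pXEN cells against 7.88 and 6.70 in nESCs (−1.04 ± 0.30, adjusted p = 0.0181, and 0.0984 without nESC line 1). The cluster of 10 from ZNF575 at chr6:46148626-46861344 had no member called against nESCs and 2 lower than in pESCs, of 9 tested, where 24.4% of all genes were lower than in pESCs. Against nESCs, ZNF428 was called with upper-quartile scaling (adjusted p = 0.0341), and ZNF576 with that scaling, with limma on log2(FPKM + 1) and without pXEN line 3 (adjusted p 0.0326 to 0.0469). The cluster of 6 from ZNF787, at chr6:55574311-56159821 and next to the one described above, had 2 higher and 2 lower. In it ZNF667, a KRAB gene, was at 6.22, 10.1 and 6.12 FPKM in pXEN cells, 14.9 and 17.5 in nESCs, and 24.0 and 22.7 in pESCs, lower in pXEN cells by 1.12 ± 0.22 (adjusted p = 0.00363) and 1.63 ± 0.22 (adjusted p = 0.000646). ZNF471 of the same cluster had no count in nESCs and 8, 23 and 17 in pXEN cells, so it was at least 5.76-fold higher there, taking 3 counts per library as the floor.

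Of 13 pairs of adjacent members that were both called against nESCs, 9 had the same direction (69.2%), and of all adjacent gene pairs both called 65.3% had. Against pESCs this held for all 10 such pairs of members and for 65.6% of all gene pairs. On chromosome 13 all 4 members of the cluster at chr13:30548057-30797825, ZNF852, ZNF197, ZNF502 and ZNF501, were higher in pXEN cells than in pESCs, by 0.89 to 1.17 on the log2 scale. Of all 1129 genes tested on chromosome 13, 38.2% were higher in pXEN cells than in pESCs, against 23.9% over the genome. The call of ZNF502 was lost without pXEN line 1 or 3 or either pESC line (adjusted p 0.0566 to 0.110), that of ZNF501 without any 1 library other than pXEN line 2 (adjusted p 0.0553 to 0.257), and those of ZNF852 and ZNF197 without pESC line 2 (adjusted p 0.0875 and 0.1). The call of ZNF501 was also lost with upper-quartile scaling or only the 2 groups fitted (adjusted p = 0.0627 in both).

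Members called in a cell type against both others, with no overlap of levels, are described as restricted to it. There were 27 such members higher in pXEN cells (13.1% of 206, beside 18.1% of all genes) and 28 lower (13.6%, beside 15.5%). In nESCs 14 were higher (6.80%, beside 8.67%) and 16 lower (7.77%, beside 11.9%), and in pESCs 4 were higher and 4 lower (1.94% each, beside 7.93% and 4.26%). Without pXEN line 2 the numbers were 35 and 37 in pXEN cells, 21 and 21 in nESCs, and 14 and 8 in pESCs (17.2%, 18.1%, 10.3%, 10.3%, 6.86% and 3.92%), where 20.2%, 19.3%, 12.7%, 14.6%, 10.8% and 6.30% of all genes met the rule. Of the 27 higher in pXEN cells, 12 were on chromosome 6 and 12 had a KRAB box, beside 60 and 75 of all 206 members tested.

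**Figure D4:**
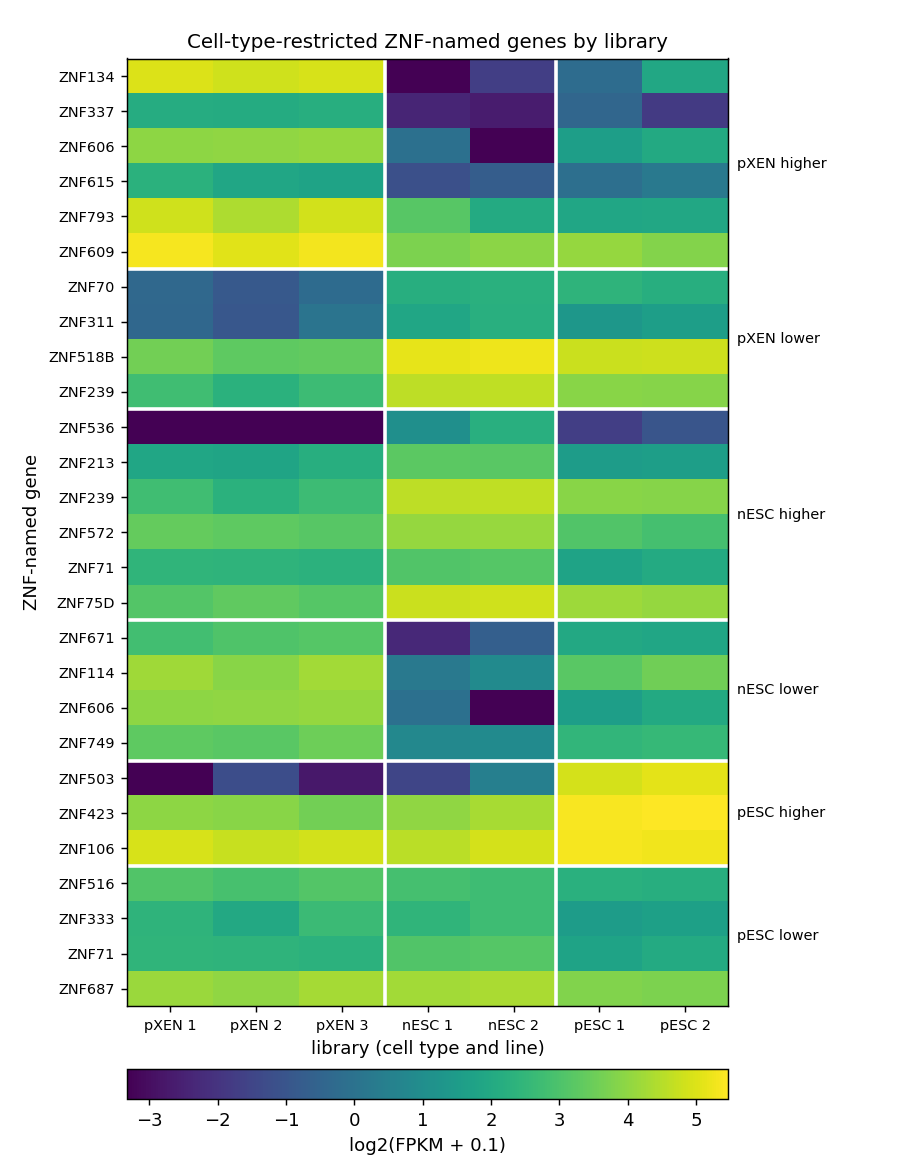
Level of restricted ZNF-named genes in each library as log2(FPKM + 0.1), in colour, with genes in rows grouped by the type and direction of the restriction and libraries in columns. White lines part the groups and the cell types. ZNF134 and ZNF606 are high in the 3 pXEN columns and low or at 0 in the nESC columns, and ZNF503 is high in the 2 pESC columns.

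Beyond the cluster described, the 4 members of the cluster at chr6:51772965-52352096 were ZNF175, ZNF337, ZNF614 and ZNF615, with a median log2 fold change of 1.75 against nESCs and 1.27 against pESCs. ZNF337 and ZNF615 were restricted to pXEN cells. ZNF614, at 2.45, 2.63 and 3.63 FPKM in pXEN cells, 2.38 and 3.24 in nESCs, and 1.96 and 2.14 in pESCs, was called in no comparison, and neither was ZNF175, whose levels differed between the pXEN lines. ZNF337 was at 4.27, 4.18 and 4.44 FPKM in pXEN cells, 0.0874 and 0.0605 in nESCs, and 0.644 and 0.184 in pESCs (3.38 ± 0.49 against pESCs, adjusted p = 0.000844). ZNF615 was at 4.80, 3.56 and 3.35 FPKM in pXEN cells, 0.338 and 0.506 in nESCs, and 0.829 and 1.08 in pESCs (2.03 ± 0.35 against pESCs, adjusted p = 0.00204). Their descriptions match ZNF613 and ZNF350, and another gene on the same strand overlaps ZNF615. ZNF114, a KRAB gene on chromosome 6, was at 18.2, 14.9 and 18.7 FPKM in pXEN cells, 1.07 and 1.73 in nESCs, and 9.13 and 11.6 in pESCs. It rose by 3.62 ± 0.26 against nESCs (adjusted p = 1.71e-05), and its call against pESCs (adjusted p = 0.0216) was lost without pXEN line 1 or 3 or either pESC line (adjusted p 0.0525 to 0.168). ZNF793, on chromosome 3 and matching ZNF567, was at 28.1, 21.0 and 28.7 FPKM in pXEN cells, 8.91 and 4.06 in nESCs, and 3.62 and 3.76 in pESCs (2.82 ± 0.33 against pESCs, adjusted p = 0.000281).

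Members named as low in pXEN cells were taken only where every stem cell library had at least 1 FPKM. Their expression in both stem cell types is thus part of the choice. ZNF518B, a partner of the methyltransferases G9a and EZH2, was at 12.1, 9.64 and 10.2 FPKM in pXEN cells, 35.3 and 38.1 in nESCs, and 27.1 and 27.5 in pESCs. It was lower in pXEN cells by 1.79 ± 0.12 (adjusted p = 1.34e-05) and 1.35 ± 0.12 (adjusted p = 8.33e-05). ZNF239 was at 6.69, 4.78 and 6.41 FPKM in pXEN cells, 24.3 and 24.8 in nESCs, and 14.9 and 14.4 in pESCs (−2.05 ± 0.17, adjusted p = 3.00e-05, and −1.29 ± 0.17, adjusted p = 0.000472). ZNF75D, on the X chromosome, had the same order, at 8.64, 9.79 and 8.76 FPKM, 27.1 and 28.0, and 18.0 and 16.8. ZNF70 was at 0.678, 0.451 and 0.742 FPKM in pXEN cells, 4.46 and 4.70 in nESCs, and 5.17 and 4.46 in pESCs (−2.87 ± 0.33 against nESCs, adjusted p = 0.000207). The reference names give its identifier another symbol, so its identity is uncertain. ZNF311, a KRAB gene, was at 0.661, 0.424 and 0.937 FPKM in pXEN cells, 3.58 and 4.55 in nESCs, and 2.41 and 2.94 in pESCs.

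The members that set nESCs apart were fewer. ZNF213, a KRAB gene, was at 3.61, 3.37 and 4.41 FPKM in pXEN cells, 9.32 and 9.26 in nESCs, and 2.82 and 2.96 in pESCs, higher in nESCs than in pESCs by 1.70 ± 0.23 (log2, SE; adjusted p = 0.00131). ZNF572 was at 9.07 to 10.5 FPKM in pXEN cells, 16.6 and 17.2 in nESCs, and 8.45 and 7.21 in pESCs. ZNF71 was at 4.89 to 5.32 FPKM in pXEN cells, 8.43 and 8.86 in nESCs, and 3.32 and 4.01 in pESCs. Both nESC libraries were above all others for each of these genes.

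Developmental and lineage factors had the largest share of fold changes over 2 among the lists of members by function. Of 11 tested, 2 were higher and 4 lower in pXEN cells than in nESCs (18.2% and 36.4%, beside 28.3% and 26.2% of all genes), and 2 and 5 against pESCs (18.2% and 45.5%, beside 23.9% and 24.4%). In each comparison with pXEN cells 63.6% of them, called or not, had a fold change over 2, beside 43.2% and 37.7% of all genes. Without pXEN line 2 the counts were 2 and 6 against nESCs and 2 and 7 against pESCs. The lists by function were drawn up with earlier results of these data known. ZNF503, a repressor that acts in forebrain development, was at 29.6 and 34.7 FPKM in pESCs, 0.259 and 1.30 in nESCs, and 0, 0.319 and 0.0476 in pXEN cells. It was higher in pESCs than in nESCs by 5.35 ± 0.66 (adjusted p = 0.000791) and lower in pXEN cells than in pESCs by 7.89 ± 0.70 (adjusted p = 7.48e-05). ZNF503 was also 1 of the 4 lower in pXEN cells than in nESCs, a call lost with DESeq2 and with limma at either pseudocount (adjusted p 0.0668 to 0.107) and without pXEN line 1 or 3, nESC line 2 or either pESC line (adjusted p 0.0775 to 0.513). ZNF423, which joins SMAD proteins in BMP signalling and directs fat cell commitment, was at 42.0 and 44.1 FPKM in pESCs, 15.8 and 19.6 in nESCs, and 15.5, 15.0 and 12 in pXEN cells (1.27 ± 0.17 in pESCs against nESCs, adjusted p = 0.00102). The ranges of pXEN cells and nESCs nearly met, and that difference did not pass the test (adjusted p = 0.0964, and 0.0177 with upper-quartile scaling).

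Several members had no count in any pXEN line. ZNF536, a repressor of neuronal differentiation, had no count in the 3 pXEN lines, 1.98 and 4.56 FPKM in nESCs, and 0.211 and 0.395 in pESCs. With 3 counts per library as the floor, it was at least 35.1-fold lower in pXEN cells than in nESCs and at least 3.26-fold lower than in pESCs. ZNF804A had none in pXEN cells and 0.513 and 0.558 FPKM in nESCs, at least 6.47-fold more. ZNF488, which acts in oligodendrocyte differentiation, had none in pXEN cells and 1.93 and 1.25 FPKM in nESCs, at least 5.84-fold more, a call lost without nESC line 1 (adjusted p = 0.0657). ZNF215, a KRAB gene that lies in an imprinted region in human, had none in pXEN cells, 0.345 and 1.31 FPKM in nESCs, and 3.75 and 3.00 in pESCs, so it was at least 8.67-fold lower in pXEN cells than in pESCs. In the opposite direction, ZNF609, a partner of the cohesin loader NIPBL in neural progenitors, was at 40.5, 33.4 and 39.4 FPKM in pXEN cells, 13.1 and 15.4 in nESCs, and 16.9 and 14.1 in pESCs (1.40 ± 0.14 against nESCs, adjusted p = 9.81e-05).

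**Figure D5:**
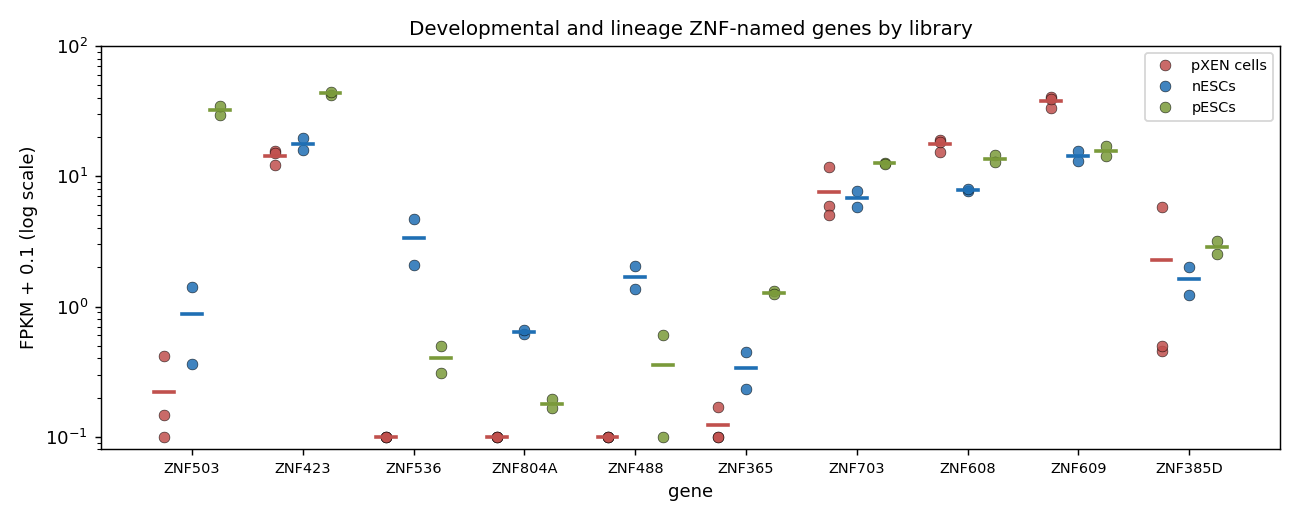
Level of 10 developmental and lineage ZNF-named genes as FPKM + 0.1 on a log scale (y axis) by gene (x axis), with a point per library and a bar at the mean of each cell type. ZNF503 and ZNF423 are highest in pESCs (29.6 to 34.7 and 42.0 to 44.1 FPKM), ZNF609 is highest in pXEN cells, and ZNF536, ZNF804A and ZNF488 lie at the 0.1 baseline in all pXEN lines.

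Of 9 tested members tied to pluripotency and reprogramming, 3 were higher and 2 lower in pXEN cells than in nESCs (33.3% and 22.2%, beside 28.3% and 26.2% of all genes), and 3 and 3 without pXEN line 2. Against pESCs 2 were higher and 2 lower (22.2% each, beside 23.9% and 24.4%), and 3 and 3 without pXEN line 2 (33.3% each, beside 26.5% and 28.9%). ZNF462, a large nuclear protein needed by pluripotent cells, was at 11.2, 8.26 and 12.2 FPKM in pXEN cells, 20.5 and 24.6 in nESCs, and 17.8 and 18.3 in pESCs (−1.10 ± 0.24 against nESCs, adjusted p = 0.00563). ZNF217, a subunit of CtBP corepressor complexes, was at 21.0, 24.8 and 21.1 FPKM in pXEN cells, 10.7 and 11.6 in nESCs, and 15.1 and 16.3 in pESCs (0.99 ± 0.12 against nESCs, adjusted p = 0.000295). Of 11 tested chromatin complex members, which include these 2 and ZNF518B, 2 were higher and 3 lower against nESCs (18.2% and 27.3%, beside 28.3% and 26.2%), and 3 and 3 without pXEN line 2. Against pESCs 4 were higher and 4 lower (36.4% each, beside 23.9% and 24.4%), with and without pXEN line 2.

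Of 10 tested members that act on RNA, ribosomes or the spindle, 2 were higher and 3 lower in pXEN cells than in nESCs (20.0% and 30.0%, beside 28.3% and 26.2% of all genes). Without pXEN line 2 they were 2 and 5 (20.0% and 50%, beside 30.2% and 29.8%). Against pESCs 1 was higher and 4 lower (10% and 40.0%, beside 23.9% and 24.4%). Without pXEN line 2 these were 1 and 5 (10% and 50%, beside 26.5% and 28.9%). ZNF598, the ubiquitin ligase that marks collided ribosomes, was at 20.5, 21.1 and 18.7 FPKM in pXEN cells, 34.1 and 29.0 in nESCs, and 34.7 and 37.0 in pESCs (−0.66 ± 0.11 against nESCs, adjusted p = 0.00171, and −0.83 ± 0.11 against pESCs, adjusted p = 0.000647). ZNF346, a binder of double-stranded RNA, was higher, at 14.6, 13.8 and 16.9 FPKM in pXEN cells, 7.94 and 6.30 in nESCs, and 9.02 and 8.01 in pESCs (1.07 ± 0.17 against nESCs, adjusted p = 0.00102). ZNF622, which acts in assembly of the large ribosomal subunit, was at 18.9, 28.1 and 21.4 FPKM in pXEN cells, 41.5 and 37.3 in nESCs, and 24.5 and 25.2 in pESCs (−0.79 ± 0.17 against nESCs, adjusted p = 0.00440). It lies on chromosome 16, where 49.0% of all genes tested were lower in pXEN cells than in nESCs.

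A small list of members tied to imprinting or retroelements had 5 of its 12 symbols in the table, and against nESCs 2 were higher and 1 lower (40.0% and 20.0%, beside 28.3% and 26.2% of all genes), with and without pXEN line 2. The higher ones were ZNF274, given above, and ZNF568, whose mouse counterpart represses a placental promoter of Igf2. ZNF568 was at 11.8, 9.81 and 15.1 FPKM in pXEN cells, 5.94 and 7.50 in nESCs, and 10.3 and 9.70 in pESCs (0.86 ± 0.21 against nESCs, adjusted p = 0.00874, and 0.0780 without nESC line 1), and a small nucleolar RNA gene overlaps it on the other strand. The lower one was ZNF202, a repressor of lipid metabolism genes, at 7.08, 4.23 and 4.92 FPKM in pXEN cells, 12.9 and 13.6 in nESCs, and 13.5 and 11.7 in pESCs (−1.30 ± 0.22, adjusted p = 0.00145).

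The pXEN lines differed from each other in a few members. Among 196 members with a mean of at least 10 counts in these lines, the median ratio of the highest to the lowest FPKM was 1.29, and 22 members (11.2%) exceeded 2-fold, beside a median of 1.37 and 18.0% for all genes. ZNF677, a KRAB gene on an unplaced scaffold, had 8, 209 and 8 counts in pXEN lines 1 to 3 and none in the other 4 libraries, and it was not tested. ZNF175 was at 1.69, 4.27 and 0.173 FPKM and ZNF385D at 0.354, 5.71 and 0.401. One of the 2 rows named ZNF33B had 4, 1 and 42 counts, with line 3 the high one. Line 2 was the farthest of the 3 lines for 51.5% of these members and for 54.7% of all genes.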

How the data were processed

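RNA of 7 porcine lines was sequenced from directional, rRNA-depleted libraries. The authors deposited read counts per gene and FPKM values, made, per the submitters' processing notes, with HISAT2 2.0.5, featureCounts 1.5.0-p3, edgeR 3.22.5 and the Sscrofa10.2 assembly; counting options are not given in the sources used here. The deposited FPKM values are scaled by gene length and by a library total that lies 0.158% to 2.24% above the TMM library size.

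The rule takes genes by symbol and uses no measured value. KRAB and SCAN domains come from the deposited gene descriptions, since no protein sequences were used and the planned search of them was not run. That this class of genes was examined, and the lists, were chosen with earlier results of these data known. Counts were fitted over all 3 cell types with edgeR 4.0.16 (TMM, filterByExpr, quasi-likelihood test, Benjamini-Hochberg, adjusted p under 0.05) in R 4.3.3; the test was checked on simulated data. Standard errors are the log2 fold change divided by the root of F. Alternatives were DESeq2 1.42.0, upper-quartile scaling, other filters, limma 3.58.1 on log2(FPKM + 0.1 or 1), 2-group fits, the line number as a block and leaving out each library. Lower bounds use 3 counts per library as the floor, and ratios use the observed counts where the lower group has 1 to 3 in all. Both cover counting error only.

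Named genes were the 5 with the highest mean FPKM; for each type up to 6 called higher (at least 1 FPKM in each of its libraries) and up to 4 called lower than both other types, ranked by the gap in FPKM; up to 4 per list by the larger change; the extremes of clusters of 5 or more; the 3 most variable among pXEN lines at a mean of 10 counts or more; and the 2 highest and 2 lowest of each comparison; other members of the chromosome 6 and chromosome 13 clusters, ZNF365, ZNF385D, ZNF782 and genes other than members were named after their values were seen. Of the 225 gene identifiers 143 are in the reference names, 138 with the same symbol; in 19 the protein match in the description has another number or none. Some genes outside the ZNF-named set are not reported here.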

Additional observations from a re-analysis of the deposited data

How the results depend on the processing

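Depth and the number of lines limit these results. In data simulated on pXEN cells against nESCs over 16783 genes, 27% of 2-fold and 95% of 4-fold changes were recovered. The simulation changed few genes and gave all genes the same spread, whereas 54.5% of genes were called in the data. Its shares may therefore differ from those in the data. With 2 or 3 libraries a type, a small change that missed the threshold is not shown to be absent. Several members have uncertain names or overlapping genes, and shared reads cannot be followed from the counts. Of 129 named differences that were called, none changed sign under an alternative in which it was still tested. The stricter count filter cost 0 calls, and each other change of tool, filter, scaling, pseudocount or groups fitted cost 7 to 10. Leaving out 1 line cost 0 (pXEN line 2, of 127 still tested) to 42 (pESC line 2) calls, and the replicate block 22. Without pXEN line 2, 20 named differences that were not called became calls. The counts without this line for the lists, chromosome 6 and clusters were added after seeing the data.

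The numbers of members called in pXEN cells against nESCs ranged from 30 (without nESC line 1) to 53 higher and 33 to 55 lower when 1 line was left out, with a relative median of −0.158 to −0.0637. Against pESCs the ranges were 15 to 45 higher and 21 to 56 lower, with a relative median of −0.102 to 0.00894. The lowest counts came without pESC line 2, and the positive median came without pESC line 1. For pESCs against nESCs the ranges were 10 (without nESC line 1) to 38 (without pXEN line 2) higher and 5 (without pESC line 2) to 29 (without pXEN line 2) lower, with a relative median of −0.0452 to 0.011. Fitting only the 2 groups compared gave 27 members lower in pESCs than in nESCs. With no filter on low counts the relative median of pXEN cells against nESCs was −0.0446. With limma on log2(FPKM + 1) the relative median of pXEN cells against pESCs was −0.0638. The share detected was 89.8%, 89.8% and 92.4% in pXEN cells, nESCs and pESCs at 0.1 FPKM, and 88.9%, 88.4% and 91.1% at more than 3 counts, and without 1 line it was 80.0% to 80.9%, 80.9% to 82.7% and 82.7% to 84.9%. Restricted members without 1 line numbered 14 to 35 higher and 15 to 37 lower in pXEN cells, 5 to 21 and 7 to 21 in nESCs, and 2 to 14 and 0 to 8 in pESCs. The highest of each came without pXEN line 2. The counts for the ZNF134 to ZNF132 cluster were chosen after seeing the data. Leaving out 1 line gave 7 to 8 of its members higher and 0 to 1 lower against nESCs, 3 to 8 higher against pESCs, and 2 to 5 higher and 0 to 2 lower in pESCs against nESCs, where upper-quartile scaling gave 2 lower and limma 1 lower with either pseudocount. The cause of these shifts was not tested, apart from the smaller number of libraries.

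The line numbers do not pair the libraries, as the deviations of same-numbered libraries from their group means correlated at −0.00892 to 0.0442. With the number as a replicate block, 28 members were lower in pXEN cells than in pESCs, the relative median was −0.0599, and in the ZNF134 to ZNF132 cluster 4 members were higher than in pESCs and 0 lower than in nESCs. The call of ZNF671 against pESCs was lost with it (adjusted p = 0.109).

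Signs turned only among named differences that were not called. With upper-quartile scaling, pXEN cells against nESCs gave −0.0585 for ZNF106, −0.0890 for ZNF207 and −0.00693 for ZNF502. Against pESCs it gave −0.0391 for MORC2, −0.0111 for ZNF207, −0.0707 for ZNF235 and −0.0336 for ZNF326, and pESCs against nESCs −0.0710 for ZNF146, −0.0779 for ZNF207, −0.0300 for ZNF70 and −0.0513 for ZNF852. With limma, ZNF175 was at −0.45 and −0.0582 against nESCs and ZNF235 at −0.0210 and −0.00756 against pESCs, for pseudocounts of 0.1 and 1, and with 2 groups alone ZNF235 was at −0.00976. With the replicate block, ZNF175 was at 0.35 and ZNF326 at −0.0784 against pESCs, and ZNF502 at −0.0296 against nESCs. Leaving out 1 line gave, against nESCs, ZNF106 −0.0661 to 0.30, ZNF175 −0.86 to 0.85, ZNF180 −0.0358 to 0.68, ZNF527 −0.0344 to 0.47 and ZNF575 −0.65 to 0.28. Against pESCs it gave MORC2 −0.0217 to 0.11, SETDB1 −0.19 to 0.00717, ZNF112 −0.0190 to 0.88, ZNF175 −1.29 to 0.51, ZNF235 −0.22 to 0.14, ZNF326 −0.0761 to 0.13, ZNF584 −0.24 to 0.23 and ZNF622 −0.30 to 0.00575. In pESCs against nESCs it gave ZNF112 −0.61 to 0.30, ZNF132 −3.67 to 0.85, ZNF146 −0.00747 to 0.0549, ZNF175 −0.21 to 0.89, ZNF202 −0.18 to 0.0227, ZNF207 −0.00950 to 0.0294, ZNF398 −0.0904 to 0.0321, ZNF529 −0.19 to 0.0745, ZNF609 −0.0206 to 0.24, ZNF70 −0.0460 to 0.17 and ZNF852 −0.0551 to 0.14.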
